A study of Arabidopsis thaliana with 12 samples.

Results

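The genes described here are the 169 probe sets of an Affymetrix ATH1 array whose signal in the root elongation zone was higher in the UPB1 mutant and lower in the UPB1 overexpression line than in wild-type Arabidopsis thaliana. They were chosen by the elongation-zone signals themselves, out of 22746 non-control probe sets. A probe set belonged if its group mean of log2(signal + 16) was at least 0.8 above Col-0 in upb1-1 and at least 0.8 below Col-0 in OX. Of the 173 probe sets that met both thresholds, 4 were left out by the rule: those for AT1G30870 and AT4G26010, which encode class III peroxidases, and for the root hair expansins EXPA7 and EXPA18. Of the 169 members, 91 were annotated to 1 gene, 3 to several genes, and 75 are unnamed here.

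RNA came from 3 genotypes grown for 6 days on standard medium: the mutant upb1-1, the line 35S::UPB1-3YFP #2 in the upb1-1 background (OX below), and the wild type Col-0. OX is 1 line, in which the 35S promoter, active in most cell types, drives UPB1 fused to YFP, and it carries the upb1-1 mutation too. Roots were cut by razor blade into elongation and meristematic zone, about 60 roots per replicate, and the RNA went through 2 rounds of amplification. The 12 arrays form 6 groups of 2 biological replicates, so the p-values measure the spread between 2 such collections, and the number of arrays limits the precision.

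UPB1 is a basic helix-loop-helix transcription factor known in the Arabidopsis root for setting where cells leave the meristem and begin to elongate. It does so largely through class III peroxidases, secreted enzymes that use or produce reactive oxygen species in the cell wall and can stiffen or loosen it. Past the meristem, root cells elongate, and epidermal cells then form root hairs, a step that needs wall synthesis, wall-loosening enzymes, kinase signalling and a reorganised cytoskeleton.

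The array medians ran from 50.76 to 67.57 in signal, and replicates correlated across probe sets with r between 0.973 and 0.988. The UPB1 probe set read 11.9 and 15.6 in upb1-1, 53.6 and 35.3 in OX and 1379 and 1233 in Col-0 in the elongation zone, and 8.54 and 16.8 in upb1-1, 28.1 and 55.2 in OX and 667 and 528 in Col-0 in the meristematic zone. The upb1-1 signals match the label, whereas the low OX signals go against that of an overexpression line, and the sources used here do not say whether the probe set covers the transgene. OX below therefore stands for the arrays labelled so. The log2 ratio of 3′ to 5′ probe sets of the control transcripts, which is higher where the RNA copies are shorter, was 4.04 in upb1-1, 3.97 in OX and 3.93 in Col-0 in the elongation zone, but 2.04 in upb1-1, 4.17 in OX and 2.22 in Col-0 in the meristematic zone.

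The members' elongation-zone values ranged from 0.80 to 3.92 above Col-0 in upb1-1, with a median of 1.42, and from -3.65 to -0.80 relative to Col-0 in OX, with a median of -1.15, on the log2(signal + 16) scale. OX stood below upb1-1 by a median log2 difference of -2.62 (range -6.09 to -1.64). The rule used these arrays, so the values describe the selection and carry no test. Over all non-control probe sets, 6.36% met the upb1-1 threshold, 4.32% met the OX threshold and 0.761% met both. The mirror rule, lower in upb1-1 and higher in OX, was met by 15 probe sets. Adding 16 compresses the differences of dim probe sets, and 61 members had both OX elongation arrays below the 40th percentile of their array.

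**Figure D1:**
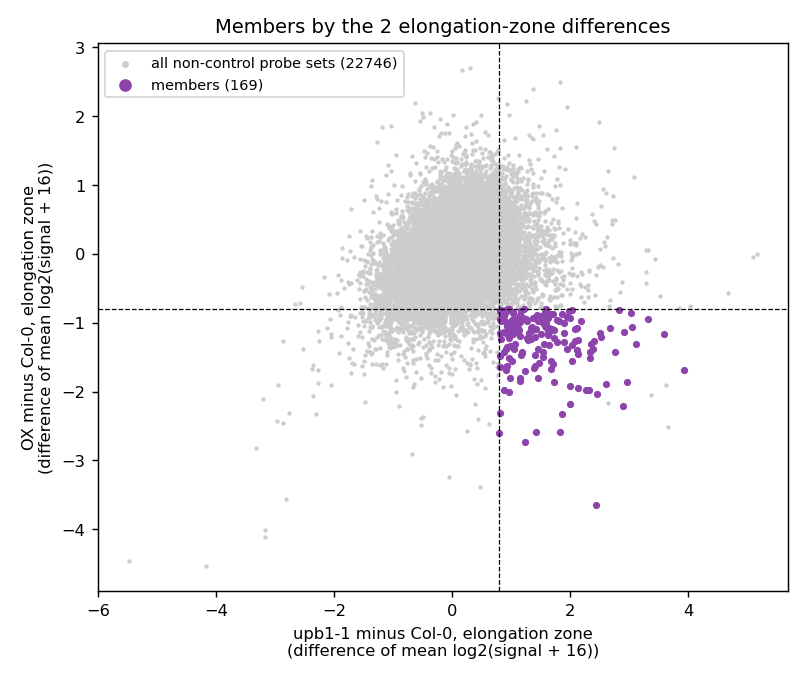
Each point is 1 of the 22746 non-control probe sets, placed by its elongation-zone difference in mean log2(signal + 16) of upb1-1 minus Col-0 (horizontal) and OX minus Col-0 (vertical); dashed lines mark the thresholds of 0.8 and -0.8. The 169 members (purple) fill the lower right corner, out to 3.92 above Col-0 in upb1-1 and -3.65 in OX.

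The median signal over the 169 members was 366 and 566 on the upb1-1 elongation arrays, 35.8 and 44.0 on the OX arrays and 115 and 134 on the Col-0 arrays. The order upb1-1 above Col-0 above OX held on all 6 elongation arrays for 165 members, a separation that 6.05% of the 15834 tested probe sets showed and that the rule favours. The other 4 were AT4G13580, AT2G39430, MT1C and the unnamed 263284_at, where at least 1 array of a genotype crossed those of another. Just inside the upb1-1 threshold lay 246252_s_at, 249729_at and AT4G01140, at log2 differences of 0.8002, 0.80 and 0.81. Just outside it lay 266967_at, AT2G44500 and 253957_at, at 0.7997, 0.7994 and 0.78. Just inside the OX threshold were AT1G71740, AT5G45650 and AT1G13830, at -0.8002, -0.8005 and -0.81. Just outside it were AT5G04960, AT2G37440 and 247868_at, at -0.79, -0.79 and -0.78, and AT5G04960 was at the same time 3.85 above Col-0 in upb1-1.

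Several families of wall and secreted proteins stood among the named members. Class III peroxidases were represented by 6 genes, AT5G66390 (PER72), AT5G64100 (PER69), AT5G17820 (PER57), AT5G15180 (PER56), AT2G39040 (PER24) and AT5G51890 (PER66), with elongation-zone differences between 0.97 and 2.34 in upb1-1 and between -2.01 and -0.93 in OX. AT5G66390 had elongation signals of 549 and 183 in upb1-1, 1.16 and 19.6 in OX and 64.8 and 38.8 in Col-0. AT5G17820, among the peroxidases that the study itself tied to UPB1, had elongation signals of 5776 and 7546 in upb1-1, 745 and 919 in OX and 2732 and 4159 in Col-0. Both genes were separated without overlap among the 3 genotypes in this zone, and AT5G17820 kept a clear signal in OX whereas AT5G66390 did not. AT5G64100 had elongation signals of 4330.1 and 3999 in upb1-1, 779 and 1144 in OX and 1508 and 2168 in Col-0, and AT2G39040 had 2449 and 3846 in upb1-1, 698 and 834 in OX and 1146 and 2027 in Col-0. Over the whole peroxidase family, 73 genes, 55 were named on the array and 33 were bright enough to be tested. Of the 55, 14 met the upb1-1 threshold, 9 the OX threshold and 8 both, against 6.36%, 4.32% and 0.761% of all non-control probe sets. Of the 8, the 2 that are not members were those the rule leaves out.

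Dirigent proteins guide the coupling of the phenoxy radicals that peroxidases and laccases produce. The 3 dirigent members, AT4G13580, AT2G39430 and AT3G13650, stood 0.85 to 2.11 above Col-0 in upb1-1 and -1.40 to -0.84 relative to Col-0 in OX. AT4G13580 had elongation signals of 732 and 312 in upb1-1, 2.12 and 88.2 in OX and 120.5 and 80.8 in Col-0. Its second OX array lay above 1 of the Col-0 arrays, so here the replicates overlap.

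The largest group after the kinases held 9 genes of wall polysaccharides and wall proteins, 0.91 to 3.60 above Col-0 in upb1-1 and -2.21 to -0.88 relative to Col-0 in OX. GH9C1, an endoglucanase of the glycosyl hydrolase 9 family and a root hair marker, had elongation signals of 784 and 1899.9 in upb1-1, 24.0 and 36.6 in OX and 70.4 and 105 in Col-0. AT1G19900, a galactose oxidase-like protein, had 1224 and 2149.9 in upb1-1, 25.5 and 38.5 in OX and 168 and 247 in Col-0, and AT1G75620, another predicted oxidase of that kind, had 404 and 608 in upb1-1, 30.8 and 37.8 in OX and 108 and 111 in Col-0. In all 3 genes the lowest upb1-1 array was well above both Col-0 arrays. TBL41, TBL38 and TBL30 belong to the family that acetylates wall polysaccharides such as xylan, and TBL38 had elongation signals of 1263 and 2399 in upb1-1, 146 and 216 in OX and 335 and 456 in Col-0. IRX15-L, needed for normal xylan chains, had 82.4 and 70.7 in upb1-1, 3.59 and 1.93 in OX and 26.0 and 41.3 in Col-0. The group was completed by AT2G03370, of a glycosyltransferase family, and AT1G23720, an extensin-like proline-rich protein whose probe set type can cross-hybridise with related genes and which is therefore uncertain.

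Lipid transfer proteins, small secreted proteins that bind lipids, contributed 5 members: AT1G48750, AT3G18280, AT3G22570, AT3G22620 and AT4G22460. They stood 0.93 to 1.94 above Col-0 in upb1-1 and -1.80 to -0.92 relative to Col-0 in OX. AT3G22570 had elongation signals of 2053 and 3125 in upb1-1, 238 and 363 in OX and 932 and 954 in Col-0. AT3G22620 had 426 and 763 in upb1-1, 61.2 and 83.3 in OX and 155 and 155 in Col-0, with nearly equal Col-0 replicates. The 4 proteases were the aspartyl proteases AT4G16563, AT3G51330 and AT5G37540 and the subtilase AT5G45650, and AT4G16563 had elongation signals of 357 and 687 in upb1-1, 7.77 and 22.6 in OX and 80.9 and 124 in Col-0. The 6 lipases and acyltransferases were the GDSL-type AT5G55050, AT2G27360 and AT2G19060 and the BAHD-type AT5G42830, AT5G02890 and AT5G01210. AT5G01210 had elongation signals of 1449 and 2259 in upb1-1, 60.4 and 115 in OX and 382 and 616 in Col-0.

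**Figure D2:**
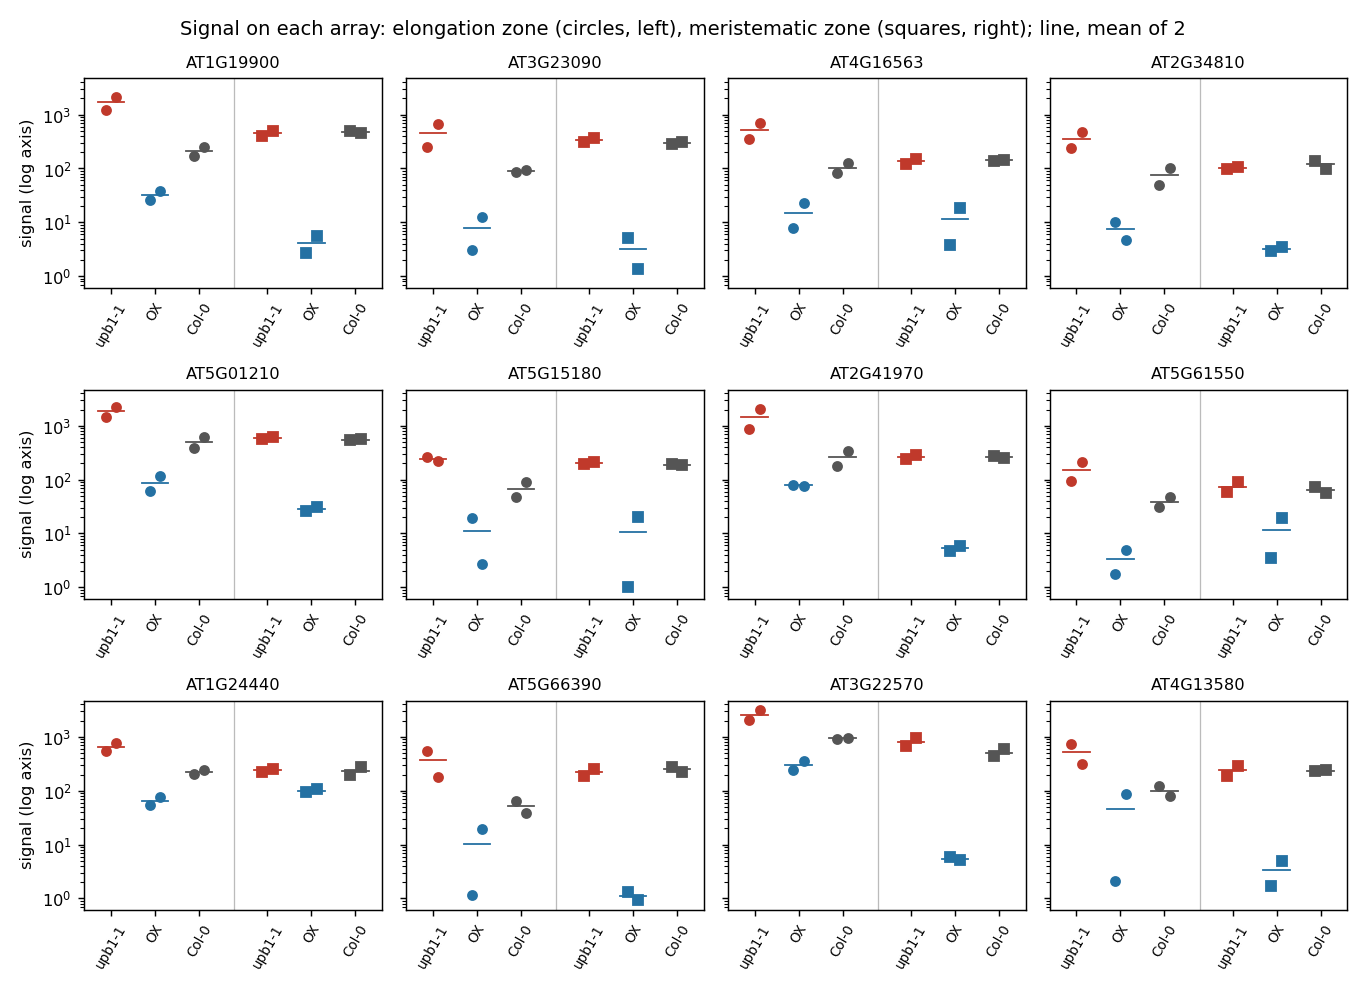
Signal on each array (log axis) of the 12 named members with the largest elongation-zone difference in both directions, ranked by the smaller of the 2; circles on the left of each panel are elongation arrays, squares on the right meristematic arrays, and lines are means of 2. In the elongation zone the upb1-1 means lie above and the OX means below those of Col-0, as the rule requires. In the meristematic zone OX is lower, and upb1-1 and Col-0 lie close together except in AT3G22570, where upb1-1 is higher (log2 change 0.65, not called).

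Signalling genes formed the largest group, with 14 members between 0.81 and 3.32 above Col-0 in upb1-1 and between -1.51 and -0.89 relative to Col-0 in OX. AT2G41970 encodes MARIS, a receptor-like cytoplasmic kinase that keeps growing root hairs and pollen tubes intact, and it had elongation signals of 865 and 2049.7 in upb1-1, 80.5 and 75.5 in OX and 182 and 346 in Col-0. AT3G07070, another receptor-like cytoplasmic kinase, had 311 and 698 in upb1-1, 4.70 and 14.4 in OX and 17.8 and 53.4 in Col-0, the widest upb1-1 difference of the group. RALFL22, of the RALF family of wall peptides that act on receptor kinases, had 700.0 and 1021 in upb1-1, 242 and 172 in OX and 581 and 388 in Col-0, so its OX arrays lay below and its upb1-1 arrays above both Col-0 arrays. The others were the receptor-like or cytoplasmic kinases AT5G65530, AT1G51860, AT3G21340, AT5G53320, AT1G66460, AT3G26700 and AT3G22750, the wall-associated kinase-like AT2G23450, AT5G45840 (MDIS1, a pollen tube receptor), the U-box kinase AT5G61550 and the AGC kinase AT1G03920.

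Of the 5 cytoskeletal members, 4 belong to microtubule-associated families: SP1L4 of the SPIRAL1 family, AT3G23090 (WDL3) of the WAVE-DAMPENED2 family, ATMAP65-6, which belongs to a family that bundles microtubules, and TRM28, related to proteins that recruit TONNEAU1. The other, AT1G73860, is a kinesin motor. AT3G23090 had elongation signals of 250.4 and 655 in upb1-1, 3.00 and 12.8 in OX and 87.3 and 93.0 in Col-0, and SP1L4 had 975 and 1755 in upb1-1, 169.8 and 169 in OX and 382 and 574 in Col-0. The transcription factor members were tny and LEP, both of the AP2/ERF family, and the trihelix factor GT2. Their elongation differences were 0.88 to 1.46 in upb1-1 and -1.42 to -0.98 in OX, and tny had elongation signals of 418 and 453 in upb1-1, 57.9 and 78.2 in OX and 149.7 and 148 in Col-0. Both transporter members, AT3G45700 of the nitrate and peptide transporter family and AT2G16980, lay 1.58 to 1.90 above Col-0 in upb1-1 and -1.0 to -0.85 relative to Col-0 in OX. The remaining 34 named members fell in none of these groups, among them the dehydrin COR47, with elongation signals of 4519 and 5237 in upb1-1, 955 and 958 in OX and 2089 and 2867 in Col-0. The unnamed 245399_at had 3723 and 2899 in upb1-1, 23.0 and 44.0 in OX and 624 and 560.4 in Col-0, and its OX difference of -3.65 was the largest of all members. The unnamed 251226_at had 800.4 and 1492 in upb1-1, 4.04 and 9.77 in OX and 60.3 and 54.0 in Col-0 and the largest upb1-1 difference, 3.92.

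The meristematic zone was not used to choose the members, and its arrays held the OX side of the pattern but no called difference between upb1-1 and Col-0. The median member signal was 179 and 204 in upb1-1, 17.2 and 15.7 in OX and 163 and 184 in Col-0. Thus the OX arrays were far below the others, and those of upb1-1 and Col-0 were close. These contrasts were tested with limma over all 15834 probe sets bright enough, the 169 members included, with Benjamini-Hochberg adjustment, and a probe set was called at an adjusted p below 0.05.

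Between upb1-1 and Col-0 in the meristematic zone, no member was called higher and none lower. Over all tested probe sets 0.0126% were called higher and 0.0253% lower, so the members' counts of 0 are near the background. At an unadjusted p below 0.05 (limma), 7 of the 169 members passed, 6 of them higher and 1 lower in upb1-1, against 1.67% of all tested probe sets. The members' median change was 0.10 on the log2 scale, against 0.00 for all tested probe sets, with 110 members above 0 and 59 below. The smallest adjusted p of a member was 0.592, for AT5G64100, which had meristematic signals of 883 and 779 in upb1-1, 63.1 and 47.7 in OX and 1957 and 1478 in Col-0, a log2 change of -1.02 (SE 0.23, adjusted p = 0.592). The dirigent gene AT3G13650 had 451 and 513 in upb1-1, 16.7 and 14.2 in OX and 263 and 292 in Col-0, a change of 0.76 (SE 0.23, adjusted p = 1.0), and the unnamed 254828_at had 2080.2 and 2408 in upb1-1, 30.6 and 19.3 in OX and 948 and 1278 in Col-0, a change of 1.01 (SE 0.24, adjusted p = 0.933). None of the 3 overlapped between the genotypes, but the share of all tested probe sets without such overlap was not computed. With only the 4 arrays of this contrast in the limma fit their adjusted p-values were 0.00566, 0.047 and 0.00625. In that fit 16 of all tested probe sets were called, and these 3 were the only members among them. AT5G64100 read lower in upb1-1 than in Col-0 on both meristematic arrays, a difference that was not called in the main fit. It read higher on both elongation arrays, as the rule favours.

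In OX most members fell in the meristematic zone as well. Against Col-0, 150 members (88.8%) were lower at an adjusted p below 0.05 (limma), where 23.5% of all tested probe sets were lower. The counts of higher calls were 1 member against 26.0% of all tested probe sets, and 18 members did not pass. The members' median change was -2.35 on the log2 scale (range -7.06 to 0.68), against 0.10 for all tested probe sets. On every array OX lay below Col-0 for 159 members (35.7% of all tested probe sets did so) and above it for 1 (43.5%), and 9 members overlapped. Against upb1-1, 152 members (89.9%) were lower in OX, with 24.5% of all tested probe sets lower, and 1 was higher, with 27.5% higher; the median change was -2.54. The contrasts share the OX arrays and are not independent.

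For comparison stand the probe sets that met 1 threshold of the rule. Of the 1112 tested probe sets that met only the upb1-1 threshold, 41.5% were called lower in OX than in Col-0 in the meristematic zone, with a median change of -0.51. Of the 765 that met only the OX threshold, 56.1% were called lower, with a median of -0.79. No test of these differences in share was made.

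The log2 difference of OX from Col-0 was further below 0 in the meristematic than in the elongation zone for 142 members and not so for 27. Across the 169 members the elongation-zone and meristematic-zone OX changes correlated with Pearson's r of 0.444 and Spearman's rho of 0.46. The rule limited the elongation-zone changes used in this count and correlation, and the dim members share a bound in both zones. No count or correlation over all tested probe sets stands beside them, so neither can be read as particular to the members. Both OX meristematic arrays were below the 40th percentile of their array, 36.54 and 34.74, for 116 members, so the sizes of these changes depend on the added 16: the median was -3.63 with 1 added and -1.48 with 64. The 3′ to 5′ control ratio stood apart on the same 2 OX meristematic arrays, and its part in the result was not tested. In tissue pieces, fewer cells that express a gene and less RNA per cell cannot be told apart.

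**Figure D3:**
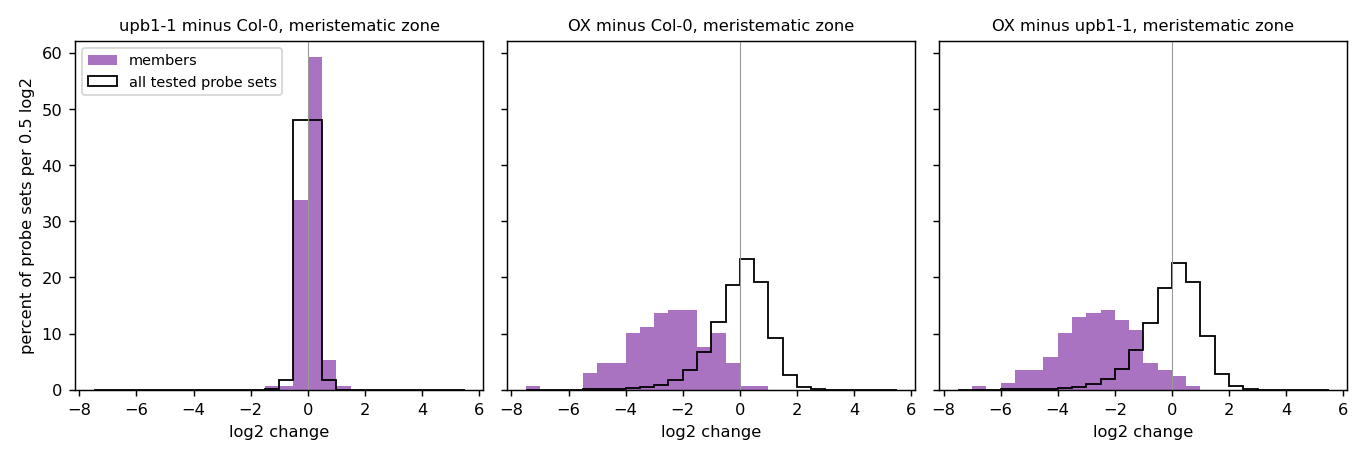
Distribution of log2 changes in the meristematic zone for the 169 members (purple) and all 15834 tested probe sets (black outline), in percent of probe sets per 0.5 log2; left, upb1-1 minus Col-0; middle, OX minus Col-0; right, OX minus upb1-1. The members centre at 0.10 on the left, at -2.35 in the middle and at -2.54 on the right, where all tested probe sets have medians of 0.00, 0.10 and 0.11.

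All 6 peroxidase members fell in OX relative to Col-0 in the meristematic zone, with a median log2 change of -3.50. Of all members 88.8% were called lower there. AT5G17820 had meristematic signals of 3247 and 3412 in upb1-1, 11.4 and 8.99 in OX and 3693 and 3269 in Col-0. Its change of -7.06 (SE 0.21, adjusted p = 3e-11) was the largest fall of any member. AT5G66390 had 190.5 and 252 in upb1-1, 1.34 and 0.924 in OX and 274 and 225 in Col-0, a change of -3.95 (SE 0.41, adjusted p = 2.64e-06), and both genes were separated from Col-0 by far more than the spread of replicates. Over the whole class III family, 21 of the 33 tested genes were lower, 2 higher and 10 not called, where 23.5% of all tested probe sets were lower and 26.0% higher. The 3 dirigent members fell too, with a median of -3.22, and AT3G13650 changed by -3.22 (SE 0.23, adjusted p = 6.77e-08).

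All 9 wall genes fell, with a median log2 change of -2.59. Of all members 88.8% were called lower, with a median change of -2.35, and of all tested probe sets 23.5% were. AT1G19900 had meristematic signals of 404 and 494 in upb1-1, 2.69 and 5.53 in OX and 500.3 and 457 in Col-0, a change of -4.62 (SE 0.26, adjusted p = 5.77e-09). GH9C1 had 273 and 342 in upb1-1, 17.6 and 19.5 in OX and 354 and 375 in Col-0, a change of -3.46 (SE 0.32, adjusted p = 7.26e-07), and TBL38 had 419 and 488 in upb1-1, 21.4 and 3.87 in OX and 331 and 439 in Col-0, a change of -3.86 (SE 0.32, adjusted p = 3.02e-07). In each of them OX and Col-0 were apart by more than the spread of replicates. The lipid transfer proteins had the strongest median of any group, -4.26, and all 5 fell, with changes from -5.07 to -1.59. No difference between groups was tested, and dim OX signals bound the size of such changes. AT3G22620 had 660.3 and 811 in upb1-1, 5.27 and 8.12 in OX and 783 and 712 in Col-0, a change of -5.07 (SE 0.24, adjusted p = 1.16e-09), and AT3G22570 had 676 and 948 in upb1-1, 5.77 and 5.11 in OX and 437 and 583 in Col-0, a change of -4.60 (SE 0.25, adjusted p = 3.2e-09). AT4G22460 had 506 and 509.6 in upb1-1, 2.99 and 23.7 in OX and 524 and 496 in Col-0, a change of -4.26 (SE 0.32, adjusted p = 1.14e-07), the widest OX spread of the 3 lipid transfer genes named here.

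The transcription factors and cytoskeletal genes fell without exception, with medians of -3.40 over 3 genes and -1.94 over 5. Beside these stand 88.8% of all members and 23.5% of all tested probe sets called lower. The factor tny had meristematic signals of 233 and 267 in upb1-1, 12.6 and 19.8 in OX and 343 and 302 in Col-0, a change of -3.40 (SE 0.20, adjusted p = 7.53e-09), and GT2 had 212 and 266 in upb1-1, 2.94 and 5.61 in OX and 186 and 205 in Col-0, a change of -3.39 (SE 0.25, adjusted p = 8.03e-08). AT3G23090 had 314 and 367 in upb1-1, 5.11 and 1.35 in OX and 286 and 309 in Col-0, a change of -4.03 (SE 0.33, adjusted p = 2.58e-07). ATMAP65-6 stayed readable in OX, with 456 and 458 in upb1-1, 92.5 and 125 in OX and 438 and 477 in Col-0 and a change of -1.94 (SE 0.27, adjusted p = 4.64e-05). The kinesin AT1G73860 passed narrowly, at -0.96 (SE 0.36, adjusted p = 0.039), and lost the call with 64 added, without the filter, under median centring and without any of 3 single arrays, with adjusted p-values between 0.0556 and 0.24 (limma). Both transporters fell, with a median of -2.56. Of the members outside these groups, AT5G40450 had 858 and 808 in upb1-1, 22.2 and 14.6 in OX and 619 and 804 in Col-0, a change of -4.40 (SE 0.25, adjusted p = 7.36e-09), and AT4G17280, a predicted membrane cytochrome b561 protein, had 522 and 563 in upb1-1, 18.5 and 10.1 in OX and 456 and 450.1 in Col-0, a change of -3.97 (SE 0.23, adjusted p = 8.2e-09). COR47 had 3888 and 3598 in upb1-1, 956 and 613 in OX and 3624 and 3593 in Col-0, a change of -2.21 (SE 0.21, adjusted p = 8.95e-07).

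Among the kinases, proteases and acyltransferases some members were not called in the meristematic zone. Of the 14 kinases and signals 11 fell, with a group median of -1.57; of the 4 proteases 3 fell, with a median of -2.11; of the 6 lipases and acyltransferases 4 fell, with a median of -2.44. Of all tested probe sets 23.5% were lower, and of all members 88.8%. No difference between gene groups was tested. The kinase gene AT2G23450, 1 of the 11, changed by -1.32 (SE 0.39, adjusted p = 0.0111) and lost the call without OX replicate 1 (adjusted p = 0.155, limma) and without Col-0 replicate 2 (adjusted p = 0.0864, limma). The kinase MARIS (AT2G41970) had meristematic signals of 241 and 290.0 in upb1-1, 4.74 and 5.78 in OX and 274 and 255 in Col-0, a change of -3.72 (SE 0.33, adjusted p = 5.21e-07), and RALFL22 had 1284 and 1508 in upb1-1, 107 and 154 in OX and 1226 and 1305 in Col-0, a change of -3.15 (SE 0.24, adjusted p = 1.48e-07). Both were separated from Col-0 by more than the spread of replicates. The kinase AT3G22750 had 31.5 and 41.3 in upb1-1, 39.8 and 42.4 in OX and 33.5 and 50.2 in Col-0, which overlapped, with adjusted p = 0.99 (limma). AT1G03920 had 44.0 and 70.9 in upb1-1, 71.9 and 40.5 in OX and 77.7 and 69.1 in Col-0, a change of -0.34 (SE 0.30, adjusted p = 0.352), and the subtilase AT5G45650 had 112 and 83.1 in upb1-1, 104 and 98.8 in OX and 119.7 and 117 in Col-0, a change of -0.19 (SE 0.22, adjusted p = 0.477). The acyltransferase genes AT5G42830 and AT5G02890 did not pass either, with changes of -0.24 (SE 0.28, adjusted p = 0.495) for AT5G42830 and -0.51 (SE 0.36, adjusted p = 0.255) for AT5G02890. AT1G51860 was dim in every genotype of this zone, with 1.29 and 15.4 in upb1-1, 1.79 and 1.57 in OX and 5.20 and 15.0 in Col-0.

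SGP1, which encodes a small GTPase, was the only member called higher. It had meristematic signals of 122 and 135 in upb1-1, 192 and 259 in OX and 124 and 143 in Col-0, so OX lay above both others on every array, while in the elongation zone it had 215 and 427 in upb1-1, 40.7 and 58.1 in OX and 104 and 113 in Col-0. The meristematic change was 0.68 (SE 0.27, adjusted p = 0.0472) against Col-0 and 0.73 against upb1-1 (adjusted p = 0.0337, limma). It lost the call against Col-0 with 1 added in place of 16, without a filter on dim probe sets, without the variance trend, and without any of 3 single arrays, with adjusted p-values between 0.0618 and 0.268. The metallothionein MT1C had 462 and 712 in upb1-1, 480.1 and 365 in OX and 902 and 540.2 in Col-0, a change of -0.72 (SE 0.73, adjusted p = 0.434), and its replicates in the elongation zone were far apart, as described with the upb1-1 replicates. It was called lower with only the 4 arrays of the contrast (adjusted p = 0.0162, limma) or only the 6 meristematic arrays (adjusted p = 0.0192, limma) in the fit.

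The difference between zones within a genotype, elongation minus meristematic, is given without a test, since the elongation arrays chose the members. In upb1-1 the median member stood 1.18 higher in the elongation zone on the log2 scale; 154 members were above 0, 96 reached 1 (11.9% of all tested probe sets did) and 1 was at -1 or below (17.7%). In OX the median was 0.65, with 134 members above 0, 69 at 1 or more (12.4%) and 13 at -1 or below (17.9%). In Col-0 it was -0.16, with 62 members above 0, 10 at 1 or more (6.19%) and 40 at -1 or below (13.2%). The Col-0 median turned to 0.10 when arrays were centred on their medians. All tested probe sets had medians of -0.04 in upb1-1, -0.11 in OX and -0.06 in Col-0. The 3′ to 5′ control ratio differed between the zones in upb1-1 and Col-0 and hardly in OX, and its part in these values was not tested.

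Members differed widely from each other in their zone preference in Col-0. The strongest named preference for the elongation zone was that of AT3G22540, with Col-0 signals of 591 and 681 in the elongation and 229.9 and 265 in the meristematic zone, a difference of 1.31. AT2G39040 had Col-0 signals of 1146 and 2027 in the elongation and 831 and 863 in the meristematic zone, a difference of 0.84. At the other end, MT1C had Col-0 signals of 88.2 and 17.6 in the elongation and 902 and 540.2 in the meristematic zone, a difference of -3.59, the lowest of all members. AT3G22620 had 155 and 155 in the elongation and 783 and 712 in the meristematic zone of Col-0, a difference of -2.16, and GH9C1 had 70.4 and 105 in the elongation and 354 and 375 in the meristematic zone, a difference of -1.89. The lipid transfer gene AT3G22570, at 0.88, was on the opposite side of 0 from AT3G22620. In upb1-1 the order of the zones in GH9C1 was reversed, with 784 and 1899.9 in the elongation and 273 and 342 in the meristematic zone, a difference of 1.94. AT5G17820 had the largest OX difference, 5.01, with 745 and 919 in the elongation and 11.4 and 8.99 in the meristematic zone of OX, and its Col-0 difference was -0.04.

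**Figure D4:**
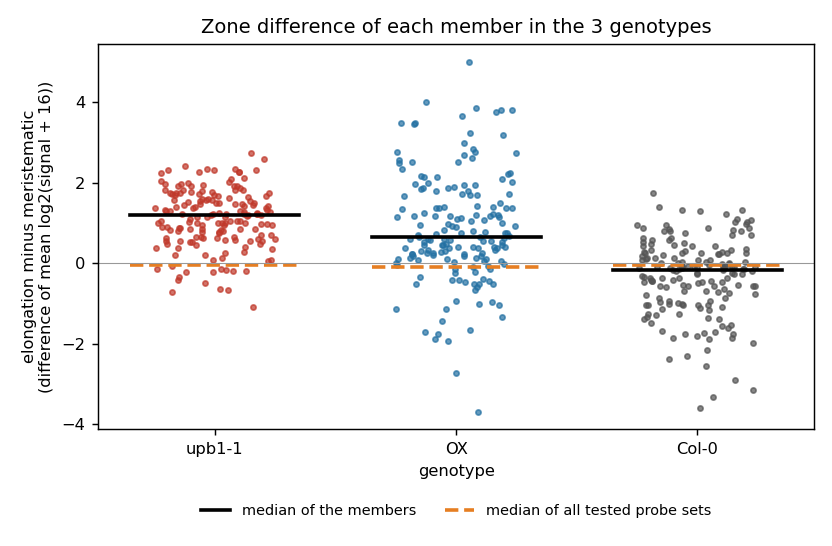
Zone difference of each of the 169 members (points), as mean log2(signal + 16) in the elongation zone minus that in the meristematic zone, in upb1-1, OX and Col-0; black lines are member medians, dashed orange lines medians of all tested probe sets. The members lie mostly above 0 in upb1-1 (median 1.18) and OX (0.65) and around 0 in Col-0 (-0.16).

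The 2 upb1-1 elongation replicates differed from each other in the members. Replicate 2 was brighter for 146 members (86.4%), against 46.0% of all tested probe sets, with a median log2 difference of 0.65 for the members and -0.05 for all. The 23 members brighter on replicate 1 included the peroxidases AT5G66390, AT5G15180 and AT5G64100, the dirigent genes AT4G13580 and AT2G39430, and the lipid transfer genes AT1G48750 and AT3G18280. MT1C was the extreme, with elongation signals of 1311 and 117 in upb1-1, 24.9 and 11.4 in OX and 88.2 and 17.6 in Col-0. AT1G48750 had 573 and 279.7 in upb1-1, 27.3 and 59.9 in OX and 113 and 75.5 in Col-0. The rule averaged both replicates; with replicate 2 left out it found 119 probe sets, of which 117 are members here, and with replicate 1 left out it found 212, of which 166 are.

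**Figure D5:**
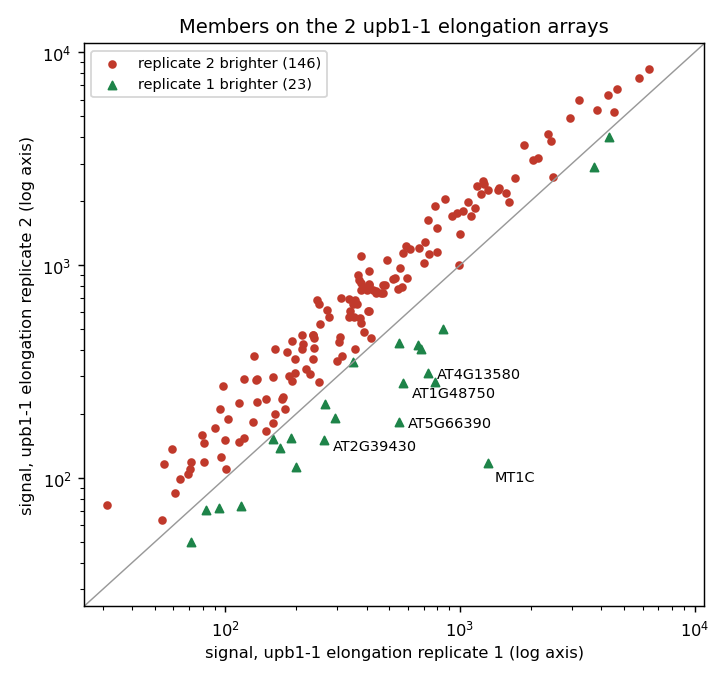
Signals of the 169 members on upb1-1 elongation replicate 1 (horizontal) and replicate 2 (vertical), both on log axes, with the line of equality. The 146 members brighter on replicate 2 (circles) lie above the line and the 23 brighter on replicate 1 (triangles) below it, with MT1C farthest at 1311 and 117.

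Markers of cell types were followed where the annotation held them. Of 11 root hair markers 3 were on the array under a name, EXPA7, EXPA18 and GH9C1. All 3 met both thresholds of the rule, and all 3 fell in OX relative to Col-0 in the meristematic zone. There 88.8% of the members and 23.5% of all tested probe sets were called lower. Their summed elongation signal was 2524.5 and 5172 in upb1-1, 63.2 and 79.8 in OX and 276 and 489 in Col-0. Their summed meristematic signal was 1020.2 and 1188 in upb1-1, 48.2 and 34.9 in OX and 1253 and 1164 in Col-0. Since the 3 met the thresholds of the rule and GH9C1 is a member, the elongation sums follow from the choice, and the part of root hair cell numbers in the members' values was not tested.

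Of the other lists, 1 of 10 endodermis markers was named on the array, GSO1, at 342 and 475 in upb1-1, 129 and 98.7 in OX and 185 and 190.2 in Col-0 in the elongation zone, and it fell in OX relative to Col-0 in the meristematic zone, with a log2 change of -1.90 (adjusted p = 8.17e-06, limma). The stem cell niche marker BBM (1 of 4) read 55.2 and 56.0 in upb1-1, 102 and 116 in OX and 35.4 and 47.9 in Col-0 in the meristematic zone. The marker of dividing cells AUR1 (1 of 6) read 363 and 377 in upb1-1, 723 and 699.9 in OX and 371 and 396 in Col-0 there. Both were thus higher in OX than in Col-0, opposite to most members, with log2 changes of 1.12 for BBM (adjusted p = 0.0029, limma) and 0.86 for AUR1 (adjusted p = 0.00581, limma). The wounding marker STZ (1 of 4) read 16.5 and 6.09 in upb1-1, 95.5 and 115 in OX and 12.9 and 15.5 in Col-0, and LHCB4.1 (1 of 5 photosynthetic markers) 72.4 and 67.7 in upb1-1, 33.8 and 34.8 in OX and 54.8 and 77.3 in Col-0, in the same zone. STZ was higher in OX, by 2.00 (adjusted p = 3.12e-05, limma), and LHCB4.1 changed by -0.69 (adjusted p = 0.046, limma). In this contrast 26.0% of all tested probe sets were called higher and 23.5% lower, and each of these lists was read from 1 gene. No marker of non-hair epidermis, suberised endodermis, xylem, phloem or root cap was named here, and the part of these cell types in the members' values was not tested.

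The 91 named genes were spread over all 5 chromosomes, with 22, 13, 21, 9 and 26 genes on chromosomes 1 to 5. As shares of the member genes these were 24.2%, 14.3%, 23.1%, 9.89% and 28.6%, where the tested genes had 25.9%, 14.4%, 20.9%, 14.7% and 24.1%. Within 10 genes of each other on a chromosome lay 5 pairs of member genes. No such count was made for the tested genes, so it cannot be read as few or many. In 1 stretch of chromosome 3, AT3G22540, AT3G22570 and AT3G22620 followed each other at distances of 4 genes each, the last 2 being the lipid transfer genes described above, and the other pairs were AT2G41970 with AT2G42060, AT3G07900 with AT3G07940, and AT3G19320 with AT3G19370.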

How the data were processed

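Affymetrix ATH1 arrays were hybridised with amplified RNA from root zones of upb1-1, OX and Col-0. The authors deposited linear probe set signal intensities from MAS5 (named in the submitters' processing notes, version not given there), with all arrays scaled to a common trimmed mean as the values themselves show. Detection calls were not used. The scale used here is log2(signal + 16), without other normalization. Of 22810 probe sets 64 were controls, and 15834 probe sets were tested, those at or above an array's 40th percentile for no fewer than 2 of 12 arrays. The meristematic contrasts were fitted with limma 3.58.1 in R 4.3.3 (6 group means, eBayes with a variance trend, prior degrees of freedom 8.75, two-sided) and adjusted by Benjamini-Hochberg over all tested probe sets. The script was tested on simulated data. No test was run on elongation-zone genotype contrasts, which chose the members.

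Of the tested probe sets 8906 (56.2%) had 1 gene, 328 several, and 6600 are unnamed here. Names came from the platform annotation and a TAIR10.1 gene table, used for names and gene order only. Named are UPB1, which is no member, and the members with the largest elongation differences in both directions, the largest meristematic changes, the largest zone differences in Col-0, those nearest the thresholds, and those in gene groups. The tables hold no product names, so every gene group was assigned by locus code from general knowledge, after the members were known. The members and lists were chosen with earlier results of these data known, and the dirigent, cytoskeletal, protease, lipase and acyltransferase groups, COR47, 263284_at, 254828_at, 245399_at and 251226_at were picked after the members' values were seen. No sequences are printed, since no sequence tables were used here. Alternatives were other pseudocounts, filters, scalings, sample sets and thresholds, and each replicate left out.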

Additional observations from a re-analysis of the deposited data

Results flagged for a closer look

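For 8 of the members named by the rule for named genes, the meristematic-zone arrays moved the opposite way to the elongation-zone arrays in the same contrast, with every array on the stated side; in each case the difference between the zones was not tested, and the elongation side was fixed by the choice of members. Over all 169 members there were 17 of this kind in upb1-1 and 1 in OX. Of all tested probe sets, 43.5% had OX above Col-0 on every meristematic array. The share with upb1-1 below Col-0 on every meristematic array was not computed, so the 17 cannot be read as an excess. In upb1-1, 7 named members were higher than Col-0 in the elongation zone and lower than Col-0 on both arrays in the meristematic zone. Their meristematic log2 changes were -1.02 for the peroxidase AT5G64100, -0.35 for the transcription factor tny, -0.28 for the GDSL lipase AT5G55050, -0.25 for the subtilase AT5G45650, -0.24 for GH9C1, -0.24 for the lipid transfer gene AT3G18280 and -0.082 for the aspartyl protease AT3G51330, and none passed limma's test over all probe sets. In OX, SGP1 was lower than Col-0 in the elongation zone and 0.68 higher in the meristematic zone.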

How the results depend on the processing

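The calls of lower members in OX against Col-0 in the meristematic zone held best: of the 150, between 144 and 150 stayed lower under every alternative run. The size did not, with median changes of -3.63 (1 added) and -1.48 (64 added) against Col-0 and -3.73 and -1.54 against upb1-1. The single higher member, SGP1, was lost against Col-0 (0 members) with 1 added, without the filter and without the trend, and against upb1-1 (0) without the filter; with single replicates left out the count was 0 to 1 in both contrasts. For upb1-1 against Col-0, 6 probe sets were called in all and 16 with only the 4 arrays compared, members then being 2 higher and 1 lower; leaving out a replicate gave 3 to 4 probe sets. AT3G22750 changed sign around 0 in OX against Col-0, at 0.0008 (1 added), 0.037 (median centring), 0.029 (without OX replicate 1) and between -0.21 and 0.20 over the replicates left out. MT1C passed with only the 4 arrays compared (adjusted p = 0.0162, limma) and with only the 6 meristematic arrays (0.0192). The rule found 359 members with 1 added, 71 with 64 added, 315 at a threshold of 0.6 and 94 at 1, and between 119 and 212 with a replicate left out. The zone difference in OX had a median of 1.25 with 1 added and 0.30 with 64, and that in Col-0 turned to 0.10 under median centring. Replicate numbers are shared between groups, but the labels do not say that they mark a common batch. Deviations of same-numbered meristematic arrays correlated at -0.0492 to 0.113. Those of elongation arrays correlated at 0.277 for upb1-1 with Col-0, -0.151 for OX with Col-0 and -0.0098 for upb1-1 with OX. With the replicate block 151 members were lower and 1 higher in OX against Col-0 in the meristematic zone. Dim OX signals bound the size of 116 members' changes. For the other values of the alternatives the cause of a shift was not tested.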
